A study of Mus musculus with 2 samples.

Results

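The 10 disease-associated microglia genes described here are Cst7, Itgax, Spp1, Lgals3, Gpnmb, Fam20c, Igf1, Cd52, Gas2l3 and Plaur. They were chosen by name among the 32285 genes of the deposited feature table, and each matched 1 row. Disease-associated microglia are a state of the resident macrophages of the brain that was described around amyloid plaques and in neurodegeneration of mice. Cells in that state carry less RNA of homeostatic surface genes and more RNA for lysosomal proteins, lipid handling and secreted factors, and full entry depends in part on the receptor Trem2. Cells with a similar program occur in developing white matter of healthy mice.

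Microglia were sequenced as single cells from mice carrying 1 copy of Cx3cr1CreERT2(Litt), an allele that places a tamoxifen-inducible Cre under the fractalkine receptor gene. The mice were 12 weeks old. TAM hashtags stand for tamoxifen, given for 4 weeks, and oil hashtags for its vehicle. All groups share the allele, and tamoxifen in mice without Cre was not analysed here. CD11b+ CD45+ Ly6G- CD206- cells were sorted from PBS-perfused brains, tagged with antibody oligonucleotides (hashtags) and pooled into 1 droplet run, so that the gene expression and hashtag libraries share all 9975 barcodes. The 5 TAM and the 5 oil hashtags served as replicates. Whether a hashtag marks 1 mouse is not given in the labels, and p-values here speak only of the variation among hashtags, part of which may be technical.

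After assignment of barcodes to hashtags and filtering, 7533 cells lay in 6 clusters that carried microglial markers, with the median of 14 markers found in 96.5% to 99.6% of their cells. There were 3793 TAM and 3740 oil cells, 583 to 901 per TAM hashtag and 624 to 880 per oil hashtag, with median depths of 4904 to 5093 UMIs (distinct molecules) per cell under TAM and 4918 to 5083 under oil. Other features of the hashtags differed too. One was the mean log2 CPM of 20 immediate early genes, which cells induce quickly on stimulation. It lay between 4.00 and 5.06 in TAM hashtags and between 5.16 and 7.11 in oil hashtags, without overlap. Inside each treatment it also dropped with every step in hashtag number. Oil1 to Oil5 had 7.11, 6.43, 6.22, 5.65 and 5.16, and TAM1 to TAM5 had 5.06, 5.03, 4.41, 4.07 and 4.00. The feature number used in fits below follows this order, 1 to 5 for Oil1 to Oil5 and 6 to 10 for TAM1 to TAM5. Whether the treatments differ beyond this order was not tested. Xist, the RNA of the inactive X chromosome, was at 4.40 to 6.16 CPM in TAM1, TAM2, Oil1 and Oil2 and at 1240 to 1706 CPM in the others. Y-linked genes, summed, went the other way, at 332 to 355 CPM in TAM1, TAM2, Oil1 and Oil2. They were at 1.28 to 3.94 CPM in the others, so these genes divide the hashtags by sex within both treatments. The part of the immediate early level and of Xist in the results below was not tested beyond the fits named there.

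The 10 genes were sparse in these sorted cells, with the exception of Cd52. A UMI of Cd52, which encodes a small glycoprotein anchored in the membrane of leukocytes, was present in 46.9% of microglia-like cells. Plaur, the urokinase receptor, was found in 4.94% of cells and Cst7, the lysosomal protease inhibitor cystatin F, in 3.20%. Gas2l3, a linker of actin and microtubules with a role in cell division, was found in 2.39%, and Fam20c, a Golgi kinase that phosphorylates secreted proteins such as osteopontin, in 2.36%. Itgax, which encodes the integrin subunit CD11c, was found in 1.67% and Lgals3, the sugar-binding protein galectin-3, in 1.06%. The secreted factors Igf1 and Spp1 (osteopontin) were found in 0.730% and 0.637%. Gpnmb, a transmembrane glycoprotein of lysosomes, had no UMI in any of the 7533 cells, which allows a share of up to 0.0398% of cells with a UMI, and 1 UMI in all 9975 barcodes. This limit and the shares cover counting error only. Shares of cells with a UMI depend on depth, and no cluster was named as a cell type that should lack these genes, so no share from free RNA could be set beside them. Cd52 lies at chr4:134082448-134095082, Gas2l3 at chr10:89408823-89443967 (both minus strand), Lgals3 at chr14:47367751-47386160, Spp1 at chr5:104435118-104441050 and Fam20c at chr5:138754514-138810077 (plus strand), all in mm10 by the GENCODE M21 annotation.

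Between treatments, summed counts of the microglia-like cells were compared with the quasi-likelihood test of edgeR over all genes, with adjusted p-values under 0.05 called. Cd52 was the only member called, higher under TAM, among the 7 members that passed the filter on low counts. The background was 1.63% of 11170 genes called higher and 2.86% called lower, together 4.49%, and 19.5% had an unadjusted p under 0.05. With 7 members tested, 1 call is a result about Cd52 and gives no reading of the list. Spp1, Igf1 and Gpnmb did not pass the filter. The median log2 fold change was 0.03 over the 7 members and -0.00025 over all genes tested. No member had CPM without overlap between the treatments, which 2.16% of genes showed with TAM above and 3.13% with TAM below. In bulk sums, fewer cells with a transcript and less RNA per cell cannot be told apart, so shares of positive cells and the mean UMIs within positive cells follow for each gene.

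**Figure D1:**
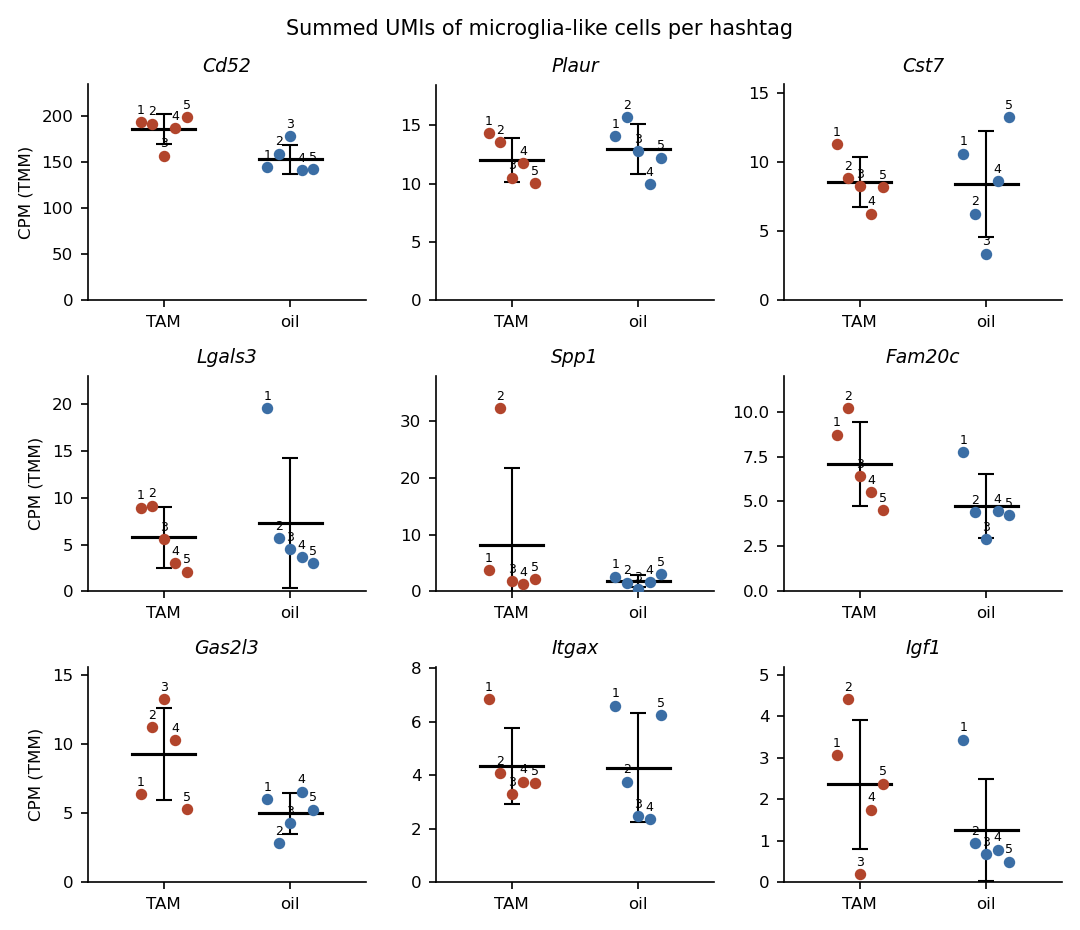
Counts scaled to equal library totals (CPM, TMM scaled, vertical axis) of 9 genes in the summed microglia-like cells of each hashtag, TAM in red and oil in blue, with hashtag numbers above the points; bars are the mean and SD of 5 hashtags, cut at 0. TAM and oil overlapped for every gene shown, and single hashtags stood apart for Lgals3 (Oil1, 19.5 CPM) and Spp1 (TAM2, 32.2 CPM).

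Cd52 had 194, 192, 157, 187 and 199 CPM in TAM1 to TAM5, against 145, 159, 178, 141 and 143 CPM in Oil1 to Oil5. TAM3 was the lowest of its group and lay below Oil2 and Oil3, so the groups overlapped. The log2 fold change was 0.27 ± 0.07 (SE), with an adjusted p of 0.0391 in edgeR. Positive cells made up 51.5%, 51.6%, 44.0%, 52.3% and 50.1% of TAM1 to TAM5, against 41.9%, 47.3%, 49.3%, 40.1% and 41.8% of Oil1 to Oil5. The means were 49.9% ± 3.41 in TAM and 44.1% ± 3.97 in oil (SD, n = 5 each; two-sided exact permutation p = 0.0556, adjusted over all genes 0.316). A Cd52-positive cell held 1.93, 1.88, 1.92, 1.90 and 2.05 UMIs on average in TAM1 to TAM5, against 1.76, 1.72, 1.83, 1.79 and 1.71 in Oil1 to Oil5. Here every TAM hashtag was above every oil hashtag, a pattern without overlap that 2.67% of 10173 genes showed in either direction. The exact permutation p was 0.00794, the smallest that 5 against 5 hashtags can give, and 0.297 after adjustment over all genes. With cells thinned to 3000 UMIs the means were 1.54 in TAM and 1.41 in oil (exact permutation p = 0.0159, adjusted 0.490). That p is above the smallest, so at equal depth the hashtags of the treatments no longer separated fully.

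Cd52 was also described by cluster, without a test. In cluster 0, the largest, Cd52 lay between 129 and 188 CPM in TAM hashtags (median 173) and between 131 and 161 CPM in oil hashtags (median 152). In cluster 1 it lay between 141 and 199 CPM in TAM (median 184) and between 123 and 280 CPM in oil (median 177). Cluster 2, led by the immediate early genes Fos, Fosb and Egr1, held 175 TAM cells and 1694 oil cells. These were uneven within each treatment, at 520, 386, 425, 245 and 118 cells in Oil1 to Oil5. TAM1 to TAM5 gave 120, 40, 5, 5 and 5 cells. The median of Cd52 in cluster 2 was 123 CPM in oil hashtags. With hashtags pooled, Cd52 was at 165 CPM in TAM and 127 CPM in oil cells of cluster 2, and 353 and 332 CPM in cluster 4. The order was reversed in cluster 5, at 329 CPM in TAM and 337 CPM in oil. It was reversed too in cluster 7, led by Ifit3 and Ifit2, at 275 CPM in TAM and 408 CPM in oil. Without cluster 2 the log2 fold change of Cd52 was 0.03 ± 0.11 (edgeR adjusted p = 0.940). Without cluster 4, led by genes of dividing cells, it was 0.24 ± 0.08 (adjusted p = 0.0951). With the immediate early level of each hashtag as a covariate it was 0.34 ± 0.12 (adjusted p = 0.245), and with the feature number of the hashtag 0.31 ± 0.14 (adjusted p = 0.504). With single hashtags left out the adjusted p ranged from 0.020 to 0.104, and it stayed under 0.05 in 2 of the 10 fits, those without Oil3 (log2 fold change 0.34) or TAM3. Monocyte markers, summed, lay at 3.73 to 15.6 CPM in TAM and 4.81 to 12.1 CPM in oil hashtags, with Ly6c2 and Chil3 among the markers at 0, and their part in the result was not tested.

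Gas2l3 had 6.36, 11.2, 13.2, 10.3 and 5.29 CPM in TAM1 to TAM5, against 6.02, 2.82, 4.27, 6.54 and 5.24 CPM in Oil1 to Oil5. TAM2, TAM3 and TAM4 were above every oil hashtag, while TAM1 and TAM5 lay among them. The log2 fold change was 0.89 ± 0.26 and missed the threshold (edgeR adjusted p = 0.0664). With the hashtag number as a replicate block it was 0.87 ± 0.25 and passed (adjusted p = 0.0376), in a fit that called 7.82% of all genes, 3.06% higher and 4.76% lower. That fit assumes that hashtags of the same number are pairs, which was not established. Gas2l3 passed with DESeq2 too (adjusted p = 0.0479), in a fit that called 193 of 11170 genes higher and 301 lower. In all it was called in 7 of 24 alternative fits. Xist as a covariate called it (edgeR adjusted p = 0.0348, 336 of 11170 genes called higher), as did the fit without filter (0.0145, 349 of 20086). It also passed without TAM1 (0.0320, 240 of 11233) or TAM5 (0.0409, 83 of 11270). It did not pass with the immediate early covariate (0.591) or the feature number of the hashtag (0.672). Positive cells were 2.90% ± 1.01 of TAM and 1.88% ± 0.256 of oil cells (SD, n = 5 each; exact permutation p = 0.111, adjusted 0.413). Of the 280 Gas2l3 UMIs, 48.2% lay in cluster 5 and 22.1% in cluster 4, which was led by Mki67 and Top2a and held 107 TAM and 16 oil cells. Cluster 4 alone gave 59 Gas2l3 UMIs in TAM and 3 in oil. The 5 markers of dividing cells summed to 21 to 117 CPM in TAM and 3.53 to 19.7 CPM in oil hashtags, without overlap. Without cluster 4 the log2 fold change of Gas2l3 was 0.44 ± 0.29 (adjusted p = 0.464), and without cluster 2 it was 0.38 ± 0.32 (adjusted p = 0.633).

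Of the genes for secreted proteins, Lgals3 had 8.94, 9.16, 5.57, 3.01 and 2.12 CPM in TAM1 to TAM5, against 19.5, 5.65, 4.50, 3.66 and 3.0 CPM in Oil1 to Oil5. Oil1 was more than any other hashtag, and 38 of its 68 Lgals3 UMIs came from 1 cell. The log2 fold change was -0.32 ± 0.48 (edgeR adjusted p = 0.792), and without Oil1 it was 0.45 ± 0.37 (adjusted p = 0.582). Positive cells were 1.21% ± 0.615 of TAM and 0.984% ± 0.325 of oil cells (SD, n = 5 each; exact permutation p = 0.556). The direction depended on a covariate. With the immediate early level of each hashtag in the fit, Lgals3 was called higher under TAM, at 2.42 ± 0.40 (adjusted p = 0.00417), one of 0.421% of genes called higher there. With the feature number of the hashtag, 1 to 10, it was called at 2.87 ± 0.50 (adjusted p = 0.0123, 0.242% of genes called higher). Neither covariate overlaps between the treatments, so its effect and that of TAM cannot be told apart. With Xist as a covariate the treatment difference was -0.26 ± 0.29 (adjusted p = 0.680), and the Xist coefficient of Lgals3 itself was called, in a test that called 2.59% of genes.

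Spp1 had 16, 95, 9, 5 and 8 UMIs in TAM1 to TAM5, against 9, 5, 2, 6 and 12 UMIs in Oil1 to Oil5. A single TAM2 cell held 90 of them, 53.9% of all Spp1 UMIs in microglia-like cells, and the next highest cell held 10. Without the filter on low counts the log2 fold change was 2.0 ± 0.56 (edgeR adjusted p = 0.0250; 4.16% of 20086 genes called, 1.74% higher and 2.42% lower), and without that cell it was 0.26 ± 0.41 (adjusted p = 0.815). The number of Spp1-positive cells was 4 to 7 in TAM hashtags and 2 to 7 in oil hashtags. Igf1, a growth factor, was found in 35 TAM cells and 20 oil cells, 1 to 10 per TAM hashtag and 2 to 10 per oil hashtag. Its log2 fold change in the fit without filter was 0.85 ± 0.50 (adjusted p = 0.489).

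The kinase gene Fam20c had 8.71, 10.2, 6.40, 5.52 and 4.50 CPM in TAM1 to TAM5, against 7.75, 4.39, 2.92, 4.45 and 4.24 CPM in Oil1 to Oil5. Each TAM hashtag was above the oil hashtag of the same number, which need not be its pair, but TAM3, TAM4 and TAM5 lay below Oil1. The log2 fold change was 0.57 ± 0.27 (edgeR adjusted p = 0.251) and was not called in any of 24 alternative fits, with adjusted p-values of 0.0703 to 0.929. Its size moved with the setting, to 0.08 without cluster 5 and 0.14 without cluster 2, and to 1.53 and 1.74 in the fits with the immediate early and the number covariate, in that order. The mean UMIs per Fam20c-positive cell were 1.35 ± 0.224 in TAM and 1.13 ± 0.145 in oil (SD, n = 5 each; exact permutation p = 0.111, adjusted 0.568).

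Cst7, Itgax and Plaur showed fold changes smaller than their standard errors. Cst7 averaged 8.57 ± 1.80 CPM in TAM and 8.43 ± 3.81 CPM in oil, at a log2 fold change of 0.03 ± 0.27 (edgeR adjusted p = 0.967). Itgax averaged 4.33 ± 1.42 CPM in TAM and 4.29 ± 2.03 CPM in oil, at 0.03 ± 0.31 (adjusted p = 0.971). Plaur averaged 12.1 ± 1.87 CPM in TAM and 12.9 ± 2.14 CPM in oil, at -0.10 ± 0.15 (adjusted p = 0.783). Their shares of positive cells were 3.43% in TAM and 3.02% in oil for Cst7, 1.65% in TAM and 1.70% in oil for Itgax, and 4.84% in TAM and 5.13% in oil for Plaur.

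In the test over shares of positive cells, no gene passed adjustment, 0% of 11172, while 16.1% had an unadjusted exact p under 0.05. None of the 9 members with a UMI was among these, and none had shares without overlap, which 4.26% of genes showed. At the smallest p of 0.00794, 1774 genes would have been needed for a call, and 476 reached it. At a larger p still more genes would have been needed. For the mean UMIs in positive cells, testable in 4 members (Cd52, Cst7, Fam20c and Plaur), the share called was again 0% of 10173 genes, with 10.9% at an unadjusted p under 0.05, and Cd52 was the 1 member of that kind.

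Apart from Cd52, the transcripts gathered in few cells. No member was found in 3591 cells, 1 member in 3358, 2 in 424, 3 in 84, 4 in 40, 5 in 22, 6 in 12 and 7 in 2, of which 1 was a TAM1 cell and 1 an Oil1 cell. Leaving Cd52 aside, 936 cells (12.4%) held at least 1 of the other genes, 192 (2.55%) at least 2 and 87 (1.15%) at least 3. Cells with at least 1 made up 14.0%, 15.3%, 11.4%, 12.5% and 12.6% of TAM1 to TAM5, against 13.6%, 12.0%, 9.77%, 10.5% and 13.6% of Oil1 to Oil5. Cells with at least 3 numbered 14, 12, 12, 8 and 6 in TAM1 to TAM5, against 12, 6, 5, 5 and 7 in Oil1 to Oil5. As shares these were 1.39% ± 0.493 in TAM and 0.965% ± 0.471 in oil (SD, n = 5 each), and the groups overlapped. No test was made of this count, since the genes were chosen with results known.

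**Figure D2:**
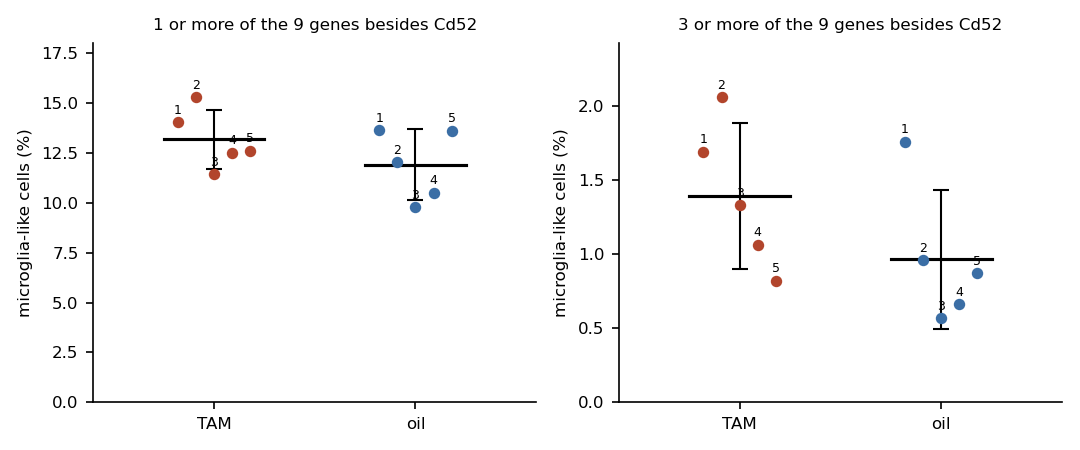
Share of microglia-like cells (vertical axis, %) with at least 1 (left) and at least 3 (right) of the 9 genes besides Cd52, per hashtag, TAM in red and oil in blue, with hashtag numbers above the points; bars are the mean and SD of 5 hashtags. On the right, TAM hashtags lay between 0.822% and 2.06% and oil hashtags between 0.568% and 1.76%.

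The pairing of members within cells was set against the number expected if each gene were spread at random within each hashtag and each of 5 equal depth classes of cells. All 36 pairs among the 9 detected genes were found in more cells than expected. Pairs of other genes were not counted in this way, so there is no background for that count. The members were chosen with earlier results of these data known. Depth can still differ within a class, and cells with a member were deeper. The median was 6330 UMIs in cells with Itgax and 4987 UMIs in cells without it. For the 28 pairs without Cd52 the ratio of observed to expected ranged from 2.26 to 13.3 with a median of 5.45, and 585 pairs were seen where 115 were expected. For the 8 pairs with Cd52 it ranged from 1.03 to 1.52. Lgals3 with Fam20c had the highest ratio, with 39 cells against 2.92 expected, 21 of them TAM cells (1.66 expected) and 18 oil cells (1.27 expected), and the pair exceeded expectation in all 10 hashtags. Lgals3 with Spp1 was found in 12 cells (0.905 expected), Lgals3 with Itgax in 24 (2.28 expected), and Lgals3 with Gas2l3 in 30 (3.18 expected). The lowest ratio without Cd52 was that of Cst7 with Spp1, in 5 cells against 2.21 expected. All 28 ratios stayed above 1 when the 7225 cells with enough UMIs were thinned to 3000 UMIs, with a median of 5.98. The 308 cells below that depth were left out. At 2 or more UMIs per gene, 24 of the 28 pairs exceeded expectation, with a median ratio of 14.6, and 4 pairs had no cell. Without cluster 5, 23 of the 28 pairs exceeded expectation, with a median ratio of 2.05, and 83 pairs were seen where 41.2 were expected.

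**Figure D3:**
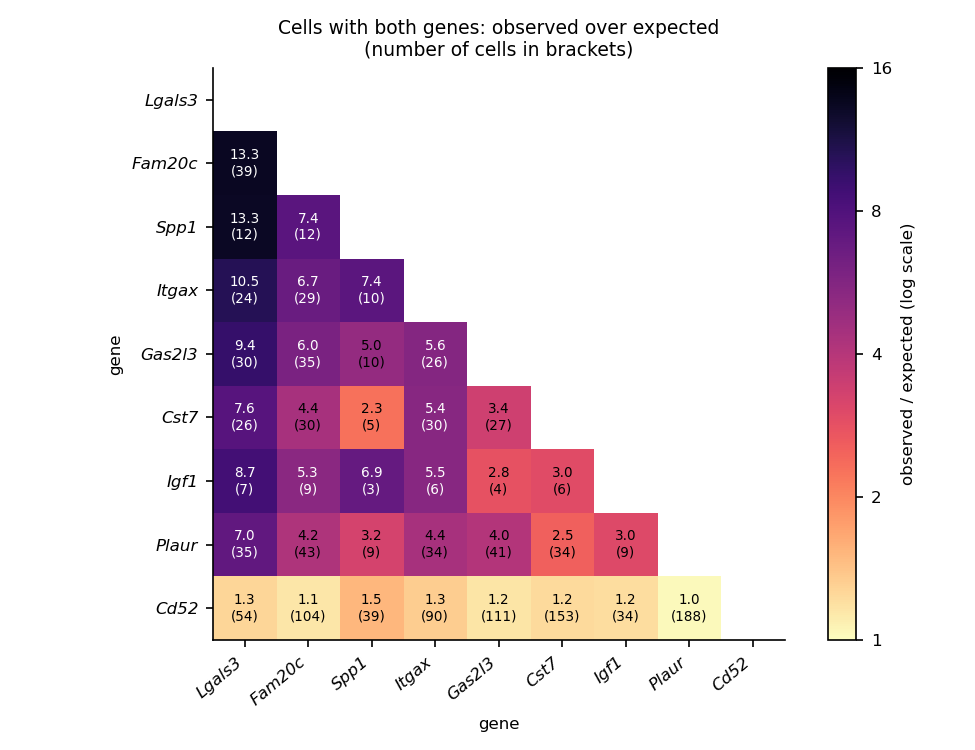
Number of cells with both genes over the number expected within hashtag and depth class (color, log scale), with the number of cells in brackets, for 9 genes in microglia-like cells of all 10 hashtags. Pairs with Lgals3 reached 13.3 times the expected number, and pairs with Cd52 (bottom row) stayed at 1.03 to 1.52.

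Cluster 5, with 212 cells (137 TAM and 75 oil), held most of these cells. Its 10 leading genes include Spp1, Lgals3 and Fam20c, and the clusters were formed with the members among all variable genes, so its shares are a description. It held 94.7% of Lgals3 UMIs, 84.4% of Spp1, 52.4% of Itgax, 51.1% of Fam20c, 48.2% of Gas2l3, 38.7% of Cst7, 33.3% of Igf1, 29.8% of Plaur and 6.38% of Cd52. Lgals3 was in 33.0% of its cells, and in 0.813% or less of each other microglia-like cluster. Of the 87 cells with 3 or more members besides Cd52, 81 (93.1%) lay in cluster 5. Besides Cd52, Spp1 was the member whose share in cluster 4 came nearest to that in cluster 5, in 12 of 123 cells of cluster 4 (9.76%) with 1 UMI each, against 23 of 212 cells of cluster 5 (10.8%) with 6.13 UMIs on average.

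**Figure D4:**
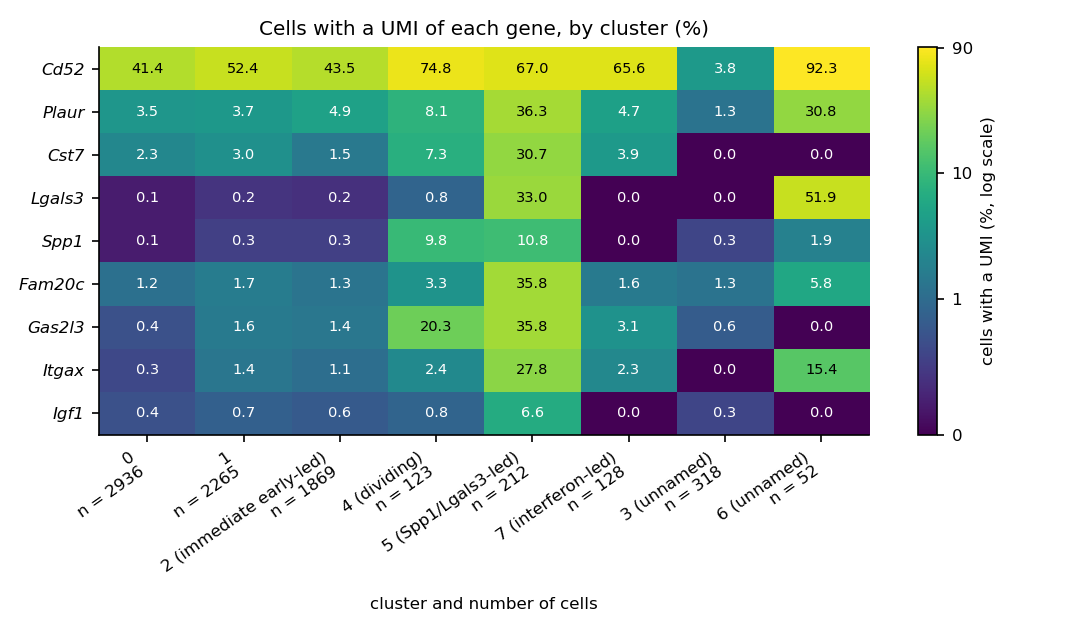
Share of cells with a UMI (%, color on a log scale) of each gene (rows) in each cluster (columns), all hashtags together, with clusters 3 and 6 outside the microglia-like cells. Cluster 5 held the highest shares among microglia-like clusters for 8 of the 9 genes, and Cd52 was in 41.4% to 74.8% of cells in each of them.

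The cells with 3 or more members were set beside the 6597 cells with none of the 9 genes besides Cd52, within each hashtag. Their median depth was 6684 UMIs, against 4937 UMIs in cells with none. Of 23 other disease-associated genes, 20 were higher in at least 9 of the 10 hashtags and none was lower in as many. Of the 11404 genes found in at least 1% of cells, 5.52% were higher and 17.0% were lower in at least 9 hashtags. Lpl, the lipoprotein lipase, was at 687 CPM in cells with 3 or more and 7.10 CPM in cells with none, and Apoe, the main lipid carrier of the brain, at 3347 CPM in cells with 3 or more and 408 CPM in cells with none. The growth factor gene Csf1 was at 312 CPM in cells with 3 or more and 11.3 CPM in cells with none. All 3 genes were higher in 10 of 10 hashtags. Cd52 was at 361 CPM in cells with 3 or more and 157 CPM in cells with none. Of 17 homeostatic genes, 14 were lower in at least 9 hashtags and none was higher. The purinergic receptor gene P2ry12 was at 1108 CPM in cells with 3 or more and 3064 CPM in cells with none, and Tmem119, a surface marker of microglia, at 343 CPM in cells with 3 or more and 1078 CPM in cells with none. The hexose transporter gene Slc2a5 was at 84.5 CPM in cells with 3 or more and 336 CPM in cells with none. Of 20 immediate early genes, 1 was higher (Atf3) and 2 were lower (Fos and Nr4a1, the second with 1 UMI in cells with 3 or more) in at least 9 hashtags. The cells were selected by member RNA, so these values carry no test.

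Correlations of log counts over cells within each hashtag were averaged over 10 hashtags. The other members, clone-named, ribosomal protein and mitochondrial genes and genes found in under 1% of cells were left out. Among the remaining genes, Lpl was most like Lgals3 (r = 0.312), Itgax (0.267), Spp1 (0.207) and Igf1 (0.155). Fam20c was most like Rai14 (0.207) and Xylt1 (0.206), Gas2l3 most like Csf1 (0.215) and Ccl4 (0.200), and Plaur most like Ccl4 (0.191). Cst7 was most like Cd63 (0.178) and Ctsb (0.154), genes of lysosomes and endosomes, and Cd52 most like Fth1 (0.193) and Cd74 (0.171). The cells share depth and library within a hashtag, and with so few UMIs these weak correlations only order the genes.

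Of 22 other disease-associated genes that passed the filter, 1 was higher and 1 was lower under TAM, and their median log2 fold change was -0.10, against -0.00025 over all genes. Lpl averaged 26.2 ± 10.7 CPM in TAM and 11.3 ± 3.02 CPM in oil hashtags (SD, n = 5 each), at a log2 fold change of 1.24 ± 0.24 (edgeR adjusted p = 0.00793). Without cluster 5 it was -0.03 (adjusted p = 0.964) and without cluster 2 it was 0.71 (adjusted p = 0.301). Trem2, the lipid-sensing receptor, averaged 1577 ± 99.6 CPM in TAM and 1810 ± 83.4 CPM in oil, at -0.20 ± 0.05 (adjusted p = 0.0181). Its adjusted p was 0.0537 without Oil3, 0.0654 without TAM3, 0.0510 without TAM4 and 0.0614 without TAM5, 0.139 without Oil1 to Oil3, 0.219 with the immediate early covariate and 0.542 with the hashtag number. The counts of the list depended on the fit, as did those over all genes, given in brackets as higher and lower. The fit as reported called 182 and 319 of 11170 genes. The replicate block called 1 higher and 9 lower (342 and 532 of 11170 genes). The Xist covariate called 1 higher and 9 lower too (336 and 532 of 11170). DESeq2 called 1 higher and 6 lower (193 and 301 of 11170). The fit without filter called 1 higher and 8 lower of 23 (349 and 486 of 20086). Without cluster 2 there were 0 higher and 5 lower (67 and 84 of 10875). Without cluster 5 there were 0 higher and 7 lower (222 and 344 of 11108). The immediate early covariate called 3 higher and 0 lower (47 and 18 of 11170). The hashtag number called 4 higher and 0 lower (27 and 10 of 11170). Clec7a was not analysed here. Of 17 homeostatic genes none was called higher, those called lower included Cst3 (-0.28), Olfml3 (-0.20) and Sparc (-0.25), and the median was -0.08.

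Because the members occurred together in cells, their promoters are shown for the genes of the 3 pairs with the highest ratios, Lgals3 with Fam20c, Spp1 and Itgax, and for Plaur, whose window holds both AP-1 and PU.1 letters. RefSeq (GRCm38.p6) gave a promoter window, 250 bases before to 50 after the start, for 9 of the 10 genes. Capitals mark matches, on either strand, to the AP-1 letters TGANTCA or the PU.1 letters GAGGAAG, 2 motifs that do not overlap here, and the E-box CACGTG was searched as well.
Spp1: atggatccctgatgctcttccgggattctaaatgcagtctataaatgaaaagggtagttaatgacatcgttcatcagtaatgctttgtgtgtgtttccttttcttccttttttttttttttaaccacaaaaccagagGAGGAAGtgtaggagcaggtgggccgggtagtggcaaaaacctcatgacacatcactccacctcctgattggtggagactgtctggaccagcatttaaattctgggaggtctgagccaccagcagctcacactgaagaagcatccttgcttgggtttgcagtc
Itgax: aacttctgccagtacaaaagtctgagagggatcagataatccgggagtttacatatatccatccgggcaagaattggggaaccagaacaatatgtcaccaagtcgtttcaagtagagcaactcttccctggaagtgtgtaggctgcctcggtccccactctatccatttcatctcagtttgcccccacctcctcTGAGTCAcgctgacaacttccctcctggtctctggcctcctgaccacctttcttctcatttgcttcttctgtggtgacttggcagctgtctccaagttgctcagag
Plaur: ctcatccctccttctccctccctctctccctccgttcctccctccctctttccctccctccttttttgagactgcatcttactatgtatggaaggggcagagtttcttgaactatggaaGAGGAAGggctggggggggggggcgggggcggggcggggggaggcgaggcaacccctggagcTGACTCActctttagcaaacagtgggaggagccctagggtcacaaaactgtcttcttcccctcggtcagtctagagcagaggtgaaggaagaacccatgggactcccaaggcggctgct
Lgals3: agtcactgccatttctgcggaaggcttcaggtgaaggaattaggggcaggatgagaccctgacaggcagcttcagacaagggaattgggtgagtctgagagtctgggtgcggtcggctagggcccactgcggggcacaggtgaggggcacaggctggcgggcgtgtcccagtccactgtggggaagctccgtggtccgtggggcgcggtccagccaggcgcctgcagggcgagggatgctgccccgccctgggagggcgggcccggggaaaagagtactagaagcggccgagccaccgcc
Fam20c: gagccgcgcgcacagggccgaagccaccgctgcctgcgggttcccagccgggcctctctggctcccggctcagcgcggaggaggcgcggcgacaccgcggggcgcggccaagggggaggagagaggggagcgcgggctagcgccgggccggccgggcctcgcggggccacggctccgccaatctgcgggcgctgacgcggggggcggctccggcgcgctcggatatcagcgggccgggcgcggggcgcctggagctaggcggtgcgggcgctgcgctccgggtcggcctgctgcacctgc
The windows lie at chr5:104434861-104435160 (Spp1, the first of 2 entries, plus strand), chr7:128129300-128129599 (Itgax, plus strand), chr7:24462233-24462532 (Plaur, plus strand), chr14:47373610-47373909 (Lgals3, plus strand) and chr5:138754831-138755130 (Fam20c, plus strand). AP-1 letters were found in 5 of the 9 genes (Cst7, Itgax, Gpnmb, Igf1 and Plaur), against 7.81% of 32851 promoters of that length. Of these, Gpnmb had no UMI in microglia-like cells, and its match lies after the start. PU.1 letters were found in 3 (Spp1, Igf1 and Plaur), against 13.6% of all, and the E-box in none of the 9, against 7.15% of all. The Igf1 window, which like that of Plaur holds AP-1 and PU.1 letters, is not printed. The Lgals3 and Fam20c windows, of the pair with the highest ratio, held none of the 3 motifs. A match is a description of these letters and not a measured site.

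**Figure D5:**
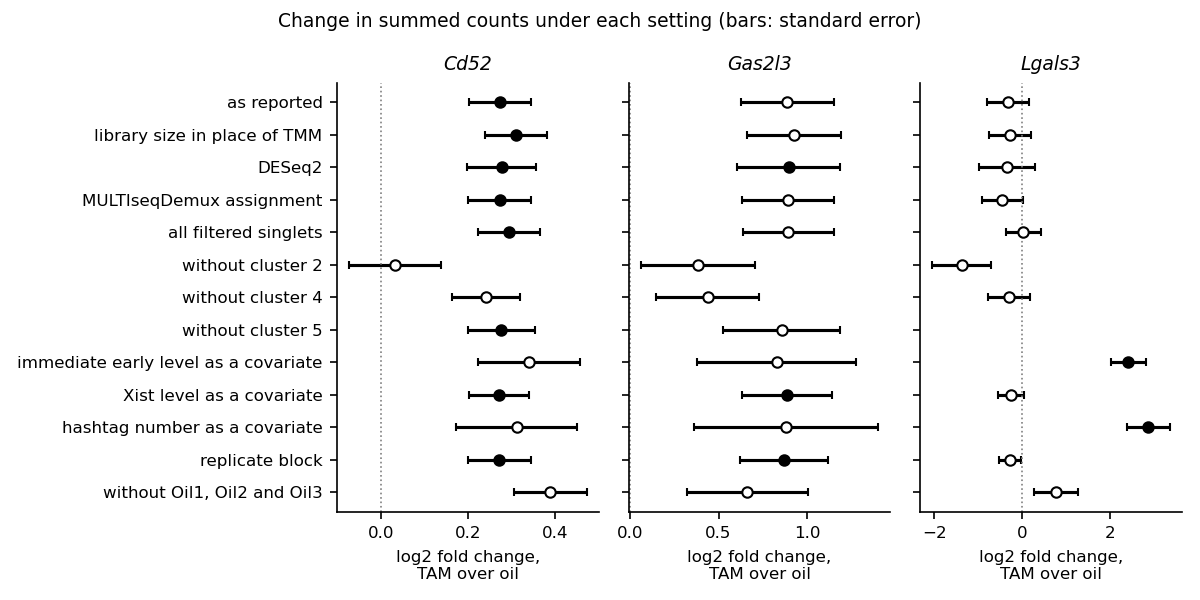
Log2 fold change, TAM over oil (horizontal axis), with its standard error for Cd52, Gas2l3 and Lgals3 under each processing setting (rows); filled points have an adjusted p under 0.05, and a missing point did not pass the filter. Cd52 stood at 0.03 without cluster 2, and Lgals3 stood at -0.32 as reported and at 2.42 and 2.87 with the 2 covariates that separate the treatments.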

How the data were processed

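Single-cell libraries of 10 hashtags were analysed. The deposited values are UMI counts per gene and per hashtag, made by the authors with Cell Ranger 7 on mm10, per the submitters' processing notes, and not normalized. From these counts, barcodes were assigned to hashtags with HTODemux (Seurat 5.3.0, quantile 0.99): 8055 carried 1 hashtag, 1737 several (removed as doublets) and 183 none, and 196 doublets of the same hashtag are expected to remain. Cells needed 500 genes, 1000 UMIs and at most 10% mitochondrial UMIs, and 7903 singlets were clustered with scanpy 1.11.5. Clusters were called microglia-like from marker genes, and 370 cells outside them were left out. UMIs were summed per hashtag (2952694 to 4792860) and tested with edgeR 4.0.16 (quasi-likelihood, TMM, filterByExpr, Benjamini-Hochberg adjustment over all genes, no covariate). DESeq2 1.42.0 was an alternative. Standard errors are the fold change over the root of the F statistic and are approximate. Shares and mean UMIs (at least 10 positive cells in every hashtag) were tested by two-sided exact permutation over hashtags. The fits were tested on simulated data.

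The members, lists and tests were chosen with earlier results of these data known. The 10 genes were named in full, with the like genes taken from outside the members at a mean correlation of 0.15 or more. The replicate block takes hashtags of the same number as pairs. The correlation of deviations over 7095 genes between such hashtags was 0.53, 0.38, 0.27, 0.20 and 0.24 for numbers 1 to 5. Not every hashtag correlated best with its own number: Oil4 had 0.38 with TAM5, and Oil5 had 0.39 with TAM4 and 0.29 with TAM3. Numbers 1 and 2 correlated positively with each other and negatively with 3 to 5, the same division as that of the hashtags by Xist. Whether equal numbers mark pairs is not settled by these correlations, and the fit with the replicate block assumes it. Clec7a was not analysed here, and some genes of the marker lists are not reported here.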

Additional observations from a re-analysis of the deposited data

Results flagged for a closer look

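Single hashtags stood apart from the other 4 of their treatment in 10 of 54 groups of values. For independent groups of normally distributed values chance gives about 1 in 20. These groups are not independent, since CPM, share and mean UMIs of a gene come from the same counts. Cd52, Igf1, Lgals3 and Spp1 were each flagged more than once for the same hashtag. The 10 of 54 can therefore not be set against that rate. Cd52 was low in TAM3, at 157 CPM and in 44.0% of cells. Itgax was high in TAM1, at 6.83 CPM, and had 1.88 UMIs per positive cell in TAM4. Spp1 was at 32.2 CPM and 19 UMIs per positive cell in TAM2, where 1 cell held 90 UMIs. Igf1 was high in Oil1, at 3.44 CPM and in 1.47% of cells. Lgals3 was high in Oil1, at 19.5 CPM and 6.80 UMIs per positive cell, where 1 cell held 38 UMIs.

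Members were also found in the cells outside the comparisons. In cluster 6, 52 unnamed cells led by the antigen presentation genes H2-Eb1 and H2-Aa, 92.3% of cells held Cd52, 51.9% Lgals3, 30.8% Plaur and 15.4% Itgax. In cluster 3, 318 unnamed cells with a median of 1502 UMIs, 3.77% held Cd52, 1.26% Fam20c and 1.26% Plaur.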

How the results depend on the processing

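As reported, 501 genes and 1 member were called. Without the low-count filter these were 835 and 3, without the filter and the cell richest in Spp1 835 and 2, with the replicate block 874 and 2 and with Xist as a covariate 868 and 2. DESeq2 called 494 genes and 2 members. Without cluster 2 these were 151 and 0, without Oil1, Oil2 and Oil3 7 and 0, and 411 and 0 without cluster 4. The immediate early covariate gave 65 genes and the hashtag number 37, each with 1 member, Lgals3 in place of Cd52. With 1 hashtag left out, 254 to 657 genes and 0 to 1 members were called. The block changed the call of Gas2l3 and of no other member.

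Cells with 3 or more members besides Cd52 were 0.446% of TAM and 0.140% of oil cells at 2 UMIs or more per gene, 0.692% of TAM and 0.409% of oil cells after thinning, and 0.0757% of TAM and 0.0856% of oil cells without cluster 5 (chosen after seeing the data).

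Log2 fold changes turned round for Cst7 (-0.61 without cluster 2, -0.044 with the immediate early covariate, -0.35 without Oil1 to Oil3, -0.19 to 0.27 with 1 hashtag left out), Itgax (-0.61 without cluster 2, -0.021 without cluster 4, -0.21 to 0.23), Lgals3 (0.028 in all singlets, 2.42 and 2.87 with the covariates, 0.77 without Oil1 to Oil3, -0.56 to 0.45) and Plaur (0.31, 0.46 and 0.12 in the same last 3 fits). Fam20c ranged from 0.08 without cluster 5 and 0.14 without cluster 2 to 1.53 and 1.74 with the covariates. Differences in shares turned round for Itgax (0.223 points thinned, 0.143 at 2 UMIs, -0.267 to 0.153 with 1 hashtag left out), Spp1 (-0.00471 thinned), Lgals3 (-0.0252 to 0.361) and Plaur (-0.675 to 0.0314). Differences in mean UMIs did so for Cst7 (0.0671 by MULTIseqDemux, -0.208 to 0.0731) and Plaur (-0.0210 thinned, -0.0102 by MULTIseqDemux, -0.00391 in all singlets, -0.0348 to 0.0457). The cause was not tested. Depth limits Spp1, Igf1 and Gpnmb, with 167, 66 and 0 UMIs in microglia-like cells.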

Other observations

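Lgals3 and Plaur were also set beside Xist, a comparison chosen after seeing the data. In the 4 hashtags with low Xist (TAM1, TAM2, Oil1 and Oil2), Lgals3 lay between 5.65 and 19.5 CPM, and in the other 6 between 2.12 and 5.57 CPM. Positive cells were 1.12% to 2.23% in the 4 and 0.624% to 0.931% in the other 6. Plaur lay between 13.6 and 15.7 CPM in the 4 and between 9.95 and 12.8 CPM in the other 6, but its shares overlapped, at 4.97% to 6.41% and 3.59% to 5.37%. Fam20c (4.39 to 10.2 CPM in the 4, 2.92 to 6.40 CPM in the other 6) and Itgax (3.76 to 6.83 CPM in the 4, 2.36 to 6.24 CPM in the other 6) overlapped. For Lgals3 the ranges nearly touched, at 5.65 and 5.57 CPM. How many of all genes lay apart between the 4 and the other 6 hashtags was not counted. The lack of overlap in Lgals3 and Plaur is therefore a description without a background. With Xist beside treatment in edgeR, the Lgals3 coefficient per log2 unit of Xist was -0.20 (adjusted p = 0.00451, where 2.59% of genes were called), and without Oil1 it was -0.14 (adjusted p = 0.0609). Xist divides the hashtags as the Y-linked genes do, so this coefficient cannot be told apart from a difference by sex. The coefficients of Plaur (adjusted p = 0.193), Fam20c (0.0682) and Itgax (0.366) were not called.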
